A study of Homo sapiens with 7 samples.

Results

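Expression of 10 genes of the pluripotent state was read in every library of this series: POU5F1, NANOG, PRDM14, UTF1, DPPA4, L1TD1, ZFP42, TERF1, LIN28A and LIN28B. They were taken by name, SOX2 being left aside, and all 10 were present among the 23262 genes of the deposited FPKM table. The study followed human embryonic stem cells (hESC) through cardiac differentiation and sequenced RNA of 7 samples, 1 library per group. All groups derive from the H3 line with 2 reporters, NKX2-5eGFP, which marks cells expressing the heart transcription factor NKX2-5, and alpha-MHC-mCherry, which marks cells expressing a cardiac myosin heavy chain. The number after NKX2 in the line's label differs between samples, and they were treated as 1 line. The groups were undifferentiated hESC at day 0; CD13+/ROR2+ cells (labelled mesoderm progenitor) and CD13-/ROR2- cells (labelled endoderm progenitor) at day 3; CD13+/ROR2+/NKX2-5+ and CD13+/ROR2+/NKX2-5- cells at day 7; and CD13+/ROR2+/NKX2-5+ cells with or without alpha-MHC (aMHC+ and aMHC-) at day 14. The labels call the first of the day 7 fractions cardiac progenitor and the aMHC+ cells cardiomyocytes, and give the other 2 as unknown cell types. CD13 and ROR2 are surface proteins used for the sort, and the day on which the later fractions passed this gate is not given in the labels. With 1 library per group there is no replicate spread, so every difference below is between 2 libraries and carries no test, error or p-value. All comparisons with hESC share the same hESC library.

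POU5F1 (which encodes OCT4) and NANOG are transcription factors at the centre of the network that keeps human stem cells pluripotent, and PRDM14, UTF1, DPPA4 and ZFP42 (REX1) are nuclear proteins expressed with them. LIN28A and LIN28B bind RNA and block maturation of the let-7 microRNAs, which accumulate as cells differentiate. L1TD1 is an RNA-binding protein that derives from a LINE-1 retrotransposon, and TERF1 is a subunit of shelterin, the complex that covers telomeres in all cells. Pluripotency factors are lost as cells leave the epiblast-like state, but early primitive streak cells, the precursors of mesoderm and endoderm, still express some of them.

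For 6 of the members, promoter windows of the RefSeq table were read (GRCh38.p14, 250 bases before to 50 after the annotated start). There were 7 windows in all because LIN28B has 2. Windows of POU5F1, PRDM14, TERF1 and LIN28A are not reported here. Each sequence below runs 5' to 3' on the gene's strand, and capitals mark the motifs searched on both strands: the octamer-type element TTTGCAT, the SOX-type element ACAATG and the GC box GGGCGG. They are shown because NANOG and DPPA4 were below 25% of their hESC level in day 3 CD13+/ROR2+ cells. L1TD1 and ZFP42 were above 25% of theirs. The windows lie at chr12:7789152-7789451 (plus strand), chr3:109337497-109337796 (minus), chr1:62194599-62194898 (plus) and chr4:187995521-187995820 (plus).
NANOG: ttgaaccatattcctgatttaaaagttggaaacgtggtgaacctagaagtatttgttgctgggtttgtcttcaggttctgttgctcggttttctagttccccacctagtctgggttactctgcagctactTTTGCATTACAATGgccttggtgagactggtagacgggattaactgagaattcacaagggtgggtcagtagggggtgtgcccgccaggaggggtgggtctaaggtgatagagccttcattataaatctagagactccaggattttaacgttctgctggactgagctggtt
DPPA4: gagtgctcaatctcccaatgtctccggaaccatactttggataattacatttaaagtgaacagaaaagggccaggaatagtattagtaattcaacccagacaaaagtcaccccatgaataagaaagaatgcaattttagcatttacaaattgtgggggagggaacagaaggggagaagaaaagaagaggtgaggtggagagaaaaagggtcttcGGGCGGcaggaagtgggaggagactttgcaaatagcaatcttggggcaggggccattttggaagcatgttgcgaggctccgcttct
L1TD1: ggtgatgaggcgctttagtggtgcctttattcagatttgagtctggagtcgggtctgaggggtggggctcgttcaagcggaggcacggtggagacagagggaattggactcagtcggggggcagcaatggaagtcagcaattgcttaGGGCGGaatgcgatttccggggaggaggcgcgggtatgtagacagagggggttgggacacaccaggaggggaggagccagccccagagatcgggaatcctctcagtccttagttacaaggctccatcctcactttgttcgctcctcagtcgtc
ZFP42: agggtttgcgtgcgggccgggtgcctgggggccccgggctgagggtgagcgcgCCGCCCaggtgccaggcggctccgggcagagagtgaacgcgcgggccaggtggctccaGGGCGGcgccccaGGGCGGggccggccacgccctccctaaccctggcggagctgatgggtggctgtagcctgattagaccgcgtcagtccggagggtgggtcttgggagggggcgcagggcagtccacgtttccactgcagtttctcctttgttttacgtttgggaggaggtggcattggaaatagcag

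The NANOG window held both elements, 1 base apart, as TTTGCATTACAATG, which begins 120 bases before the start. This is the well-known joint site of OCT4 and SOX2, and it was picked with the NANOG sequence in view. The arrangement occurred in 3 of 35116 windows (0.00854%), those of NANOG, NRARP and LOC105370047. The octamer element was in 4.46% of windows and the SOX element in 10.8%, the latter including 1 of the LIN28B windows. No window of DPPA4, L1TD1, ZFP42 or UTF1 held either element, which says only that these letters are not in these 300 bases. GC boxes, present in 45.0% of all windows, numbered 1 in DPPA4, 1 in L1TD1, 3 in ZFP42, 6 in UTF1 and 0 in NANOG. In base composition the windows of NANOG (46.7% GC, 5 CpG) and DPPA4 (45.3% GC, 5 CpG) lay below the median window (58.7% GC). L1TD1 (58.0% GC, 14 CpG) lay close to it. ZFP42 (69.3% GC, 24 CpG) and UTF1 (71.7% GC, 39 CpG) lay above. Of the LIN28B windows, 1 lay above (73.0% GC, 37 CpG, 2 GC boxes) and 1 below (39.0% GC, 8 CpG, 0 GC boxes). These are descriptions of sequence, and neither binding nor methylation was measured here.

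The deposited values hold no read counts, and depth relative to hESC was estimated from how low values are spaced. It ranged from 0.603 in day 7 NKX2-5+ to 3.10 in day 14 aMHC-, with the least sharp estimate, 1.13, in day 7 NKX2-5-. Values well below 1 FPKM (fragments scaled to transcript length and library total) rest on few reads, and one listed at 0 can be a failed estimate. The heart muscle markers TNNT2, MYH6, MYL7, ACTC1 and NKX2-5 summed to 1.22 FPKM in hESC, 3736 in day 7 NKX2-5+ and 5522 in day 14 aMHC+. On day 3 the labels were checked against endoderm markers (SOX17, FOXA2, CXCR4, HHEX and GATA6). Their sum was 9.22 FPKM in the fraction labelled endoderm progenitor, where 2 of 5 reached 1 FPKM, and 119 in the CD13+/ROR2+ fraction, where 5 of 5 did. The day 3 CD13-/ROR2- library is therefore called by its sort.

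In hESC the members spanned a wide range of levels. DPPA4 was the highest at 229 FPKM, followed by POU5F1 at 154, L1TD1 at 152, TERF1 at 103 and LIN28A at 95.2. NANOG stood at 36.5, LIN28B at 22.0, ZFP42 at 15.3, PRDM14 at 11.7 and UTF1 at 4.24 FPKM. Without replicates, neighbours such as POU5F1 and L1TD1 cannot be placed in order. The same 10 genes summed to 823 FPKM in hESC, 707 in day 3 CD13-/ROR2- and 214 in day 3 CD13+/ROR2+. The sums were 14.5 in day 7 NKX2-5+, 45.7 in day 7 NKX2-5-, 13.1 in day 14 aMHC+ and 16.5 in day 14 aMHC-. In such bulk samples, fewer expressing cells and less RNA per cell cannot be told apart.

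**Figure D1:**
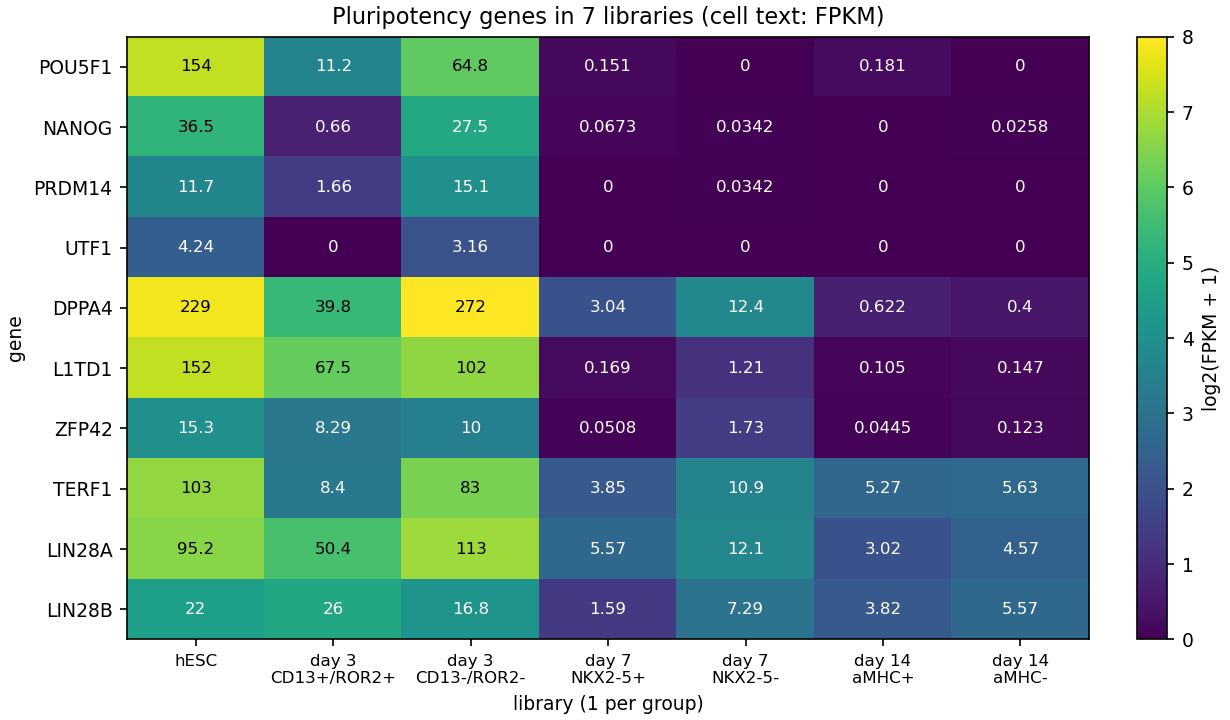
FPKM of the 10 genes (rows) in the 7 libraries (columns, 1 library each), with colour on the log2(FPKM + 1) scale and the FPKM printed in each cell. hESC and day 3 CD13-/ROR2- share high values, day 3 CD13+/ROR2+ splits the genes, and on days 7 and 14 TERF1, LIN28A and LIN28B hold most of what is left.

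Day 3 separated the members into 2 sets in the CD13+/ROR2+ library, whereas the CD13-/ROR2- library stayed nearer to hESC. The fractions are called double-positive and double-negative below where this is shorter. After adding 1 to each FPKM, the log2 ratio of a pair of libraries was taken, and a gene counted as lower at -2 or less (4-fold) if its larger value reached 5 FPKM. By this rule 5 of 10 members were lower in CD13+/ROR2+ than in hESC and 0 higher: POU5F1, NANOG, PRDM14, DPPA4 and TERF1. UTF1 could not be called because it was below 5 FPKM in every library. Of 5871 genes with at least 5 FPKM in either library the rule called 2.54% lower, and of the 4885 with at least 5 FPKM in hESC 3.05%. The members' median log2 ratio was -2.32, beside -0.01 over the genes tested. In CD13-/ROR2- against hESC, 0 of 10 members were called in either direction, beside 1.17% of genes called lower (1.37% of those with 5 FPKM in hESC), and the members' median log2 ratio was -0.35.

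POU5F1 had 154 FPKM in hESC, 64.8 in the day 3 double-negative library and 11.2 in the double-positive one. It was thus at 42.1% of hESC in the double-negative and 7.25% in the double-positive cells, with the lowest retention of any member in the double-negative fraction. Reads of POU5F1 may be shared with its near-identical relative POU5F1B, which stood at 10.1, 4.55 and 1.85 FPKM in the same libraries. With the pair summed, the percentages were 42.3% and 7.93%. NANOG, at 36.5 FPKM in hESC and 27.5 in double-negative cells, had 0.660 in double-positive cells, or 1.81% of hESC. Its quotient between hESC and CD13+/ROR2+, 55.3-fold, exceeded that of POU5F1, 13.8-fold. NANOG has processed copies elsewhere in the genome, and any reads they share are not separated here.

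PRDM14, a PR-domain protein that restrains differentiation signals, had 11.7 FPKM in hESC, 15.1 in double-negative and 1.66 in double-positive cells. UTF1, a chromatin-associated factor, had 4.24 and 3.16 FPKM in the first 2 and was listed at 0 in double-positive cells. DPPA4, a chromatin protein of early embryos, had 229, 272 and 39.8 FPKM respectively. All 3 thus kept hESC-like levels in the double-negative cells (129%, 74.5% and 119% of hESC), while PRDM14 and DPPA4 were at 14.2% and 17.4% in the double-positive cells. TERF1 followed the same division, with 103 FPKM in hESC, 83.0 in double-negative and 8.40 in double-positive cells. Its 9.89-fold difference between the day 3 fractions was second to that of NANOG (41.7-fold) among the 9 members above 0 in both.

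The other 4 members were at 44.5% of hESC or more in the double-positive library. L1TD1 had 152 FPKM in hESC, 67.5 in double-positive and 102 in double-negative cells, and was the highest of the 10 genes in the double-positive library. LIN28A had 95.2, 50.4 and 113 FPKM respectively. ZFP42, a zinc finger protein long used as a stem cell marker, had 15.3, 8.29 and 10.0. LIN28B had 22.0 FPKM in hESC, 26.0 in double-positive and 16.8 in double-negative cells, which made it the only one of the 10 that was higher in the double-positive than in the double-negative library (1.55-fold, short of the size rule). ZFP42 had the smallest quotient between the fractions, 1.21-fold.

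**Figure D2:**
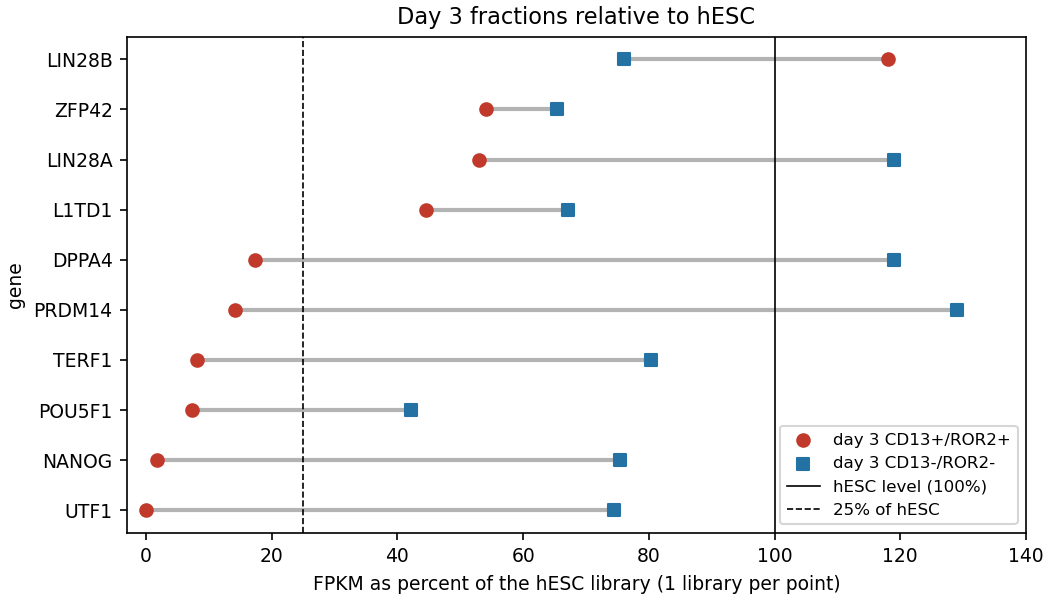
FPKM in the 2 day 3 libraries as percent of hESC (x axis), by gene (y axis, in order of the CD13+/ROR2+ value), with circles for CD13+/ROR2+, squares for CD13-/ROR2- and lines at 25% and 100%. Squares lie between 42.1% and 129%, circles between 0% and 118%, and LIN28B alone has its circle to the right of its square.

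Set directly against each other, CD13+/ROR2+ was lower than CD13-/ROR2- at 5 of 10 members (POU5F1, NANOG, PRDM14, DPPA4 and TERF1) and higher at 0. The rule called 2.54% of genes with at least 5 FPKM in either library lower, and 3.01% of those with at least 5 FPKM in CD13-/ROR2-. Median log2 ratios were -2.25 for the members and 0.03 for the genes tested. Over the 10 genes the median level was 15.8% of hESC in double-positive cells and 75.8% in double-negative cells, whereas the median of the 4885 genes expressed in hESC was 89.6% and 89.7%. In CD13-/ROR2-, PRDM14, DPPA4 and LIN28A stood above hESC (129%, 119% and 119%). With every library scaled to an equal sum of FPKM, NANOG, UTF1, TERF1 and LIN28B also came out above hESC. Their log2 ratios were then 0.09 to 0.20 in place of -0.31 to -0.39, so the side on which these 4 lie depends on the scaling. MIR612 alone makes up 26.6% of the hESC sum. After median-ratio scaling or without small RNA and histone genes, all 4 were again below hESC. SOX2, the partner of POU5F1 at many sites, had 26.3 FPKM in hESC, 68.0 in double-negative and 0.295 in double-positive cells. It thus departed further from hESC in both fractions than PRDM14, DPPA4 or LIN28A.

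Markers of some other cell types differed between the day 3 fractions alongside the members, while the germ cell sums were close. The primitive streak and mesoderm markers (MIXL1, T, EOMES, MESP1, TBX6 and APLNR) were all 6 at 1 FPKM or more in both, with sums of 624 FPKM in double-positive cells, 128 in double-negative cells and 1.91 in hESC. T, which encodes brachyury, had 18.7 FPKM in double-negative and 7.32 in double-positive cells. Amnion and trophoblast markers summed to 23.3 FPKM in double-negative cells (3 of 5 at 1 FPKM or more, none at 0, TFAP2A at 16.2) and to 3.09 in double-positive cells (1 of 5, with CDX2 and KRT7 at 0) beside 3.13 in hESC. This list split, since KRT7 (0.186 against 1.03 FPKM) and GABRP (0.263 against 2.04) were lower in double-negative cells than in hESC. Primordial germ cells also express POU5F1, NANOG and PRDM14. Of their markers 2 of 6 reached 1 FPKM in CD13-/ROR2- (sum 9.09 FPKM, DPPA3 at 0, DDX4 at 0.0212). In CD13+/ROR2+ 1 of 6 did (sum 8.29, DDX4 at 0), and the sum in hESC was 2.08. The largest part was TFAP2C in CD13-/ROR2- (6.55 FPKM) and PRDM1 in CD13+/ROR2+ (7.08). Neuroectoderm markers summed to 0.224 and 0.423 FPKM, with SOX1 at 0 in both. What part cells of these kinds had in the members' levels was not tested.

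The order of loss was read along the libraries hESC, day 3 CD13+/ROR2+, day 7 NKX2-5+ and day 14 aMHC+, which are separate sorts and not one population traced in time. A member was counted as lost in the first library at or below 25% of its hESC FPKM. On day 3, 6 of 10 had passed that line (POU5F1, NANOG, PRDM14, UTF1, DPPA4 and TERF1), beside 4.26% of the 4885 genes expressed in hESC. The remaining 4 (L1TD1, ZFP42, LIN28A and LIN28B) passed it in day 7 NKX2-5+, where 20.0% of genes had done so. In day 14 aMHC+ all 10 were below it, beside 11.4% of genes. Through day 7 NKX2-5- and day 14 aMHC- instead, LIN28B stayed above the line as deposited (33.1% and 25.3%). With an equal sum of FPKM it was at 20.0% and 21.7% there. Nearest to the line on day 3 were DPPA4 at 17.4% below it and L1TD1 at 44.5% above it. With a limit of 10% the day 3 set shrank to POU5F1, NANOG, UTF1 and TERF1, and with 50% it gained L1TD1, while LIN28A (52.9%) and ZFP42 (54.1%) stayed just above.

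**Figure D3:**
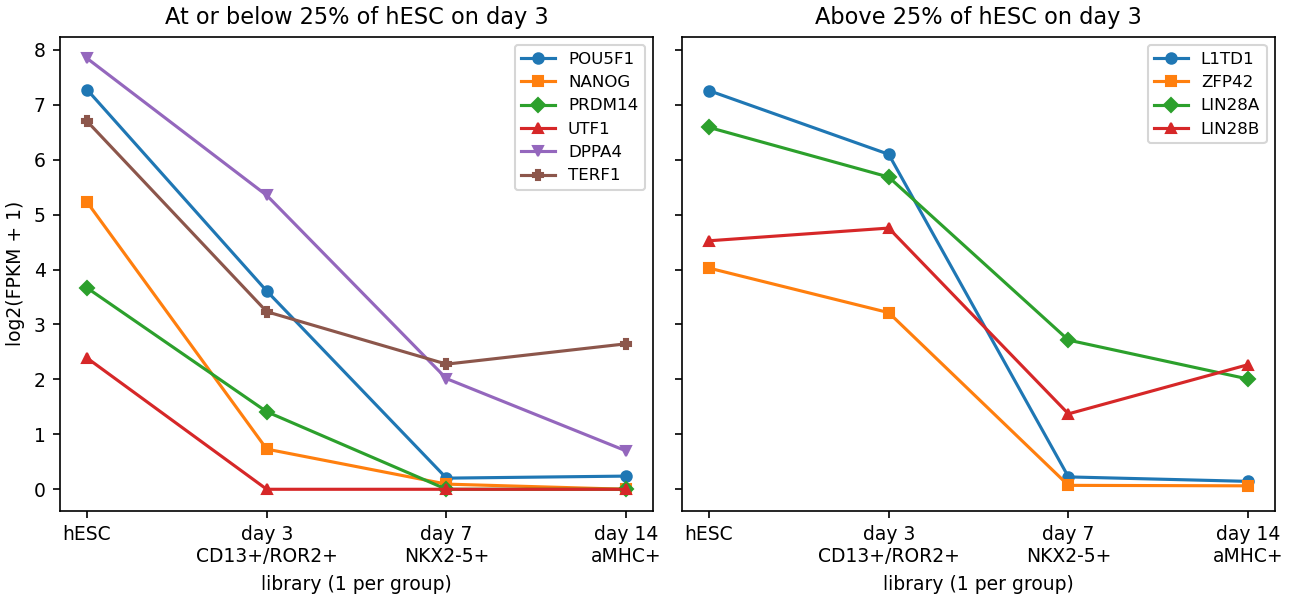
log2(FPKM + 1) of the 10 genes (y axis) in hESC, day 3 CD13+/ROR2+, day 7 NKX2-5+ and day 14 aMHC+ (x axis, evenly spaced, 1 library each); lines join the values of 1 gene. The left panel holds the 6 genes at or below 25% of hESC on day 3 and the right panel the other 4, of which L1TD1 went from 67.5 FPKM on day 3 to 0.169 on day 7.

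The 4 late members differed in their day 7 levels. L1TD1 went from 67.5 FPKM on day 3 to 0.169 in day 7 NKX2-5+, which is 0.111% of hESC and near the level of POU5F1 there (0.0983%). ZFP42 went from 8.29 to 0.0508 FPKM (0.332% of hESC). LIN28A, in contrast, was still at 5.57 FPKM (5.85%) and LIN28B at 1.59 (7.24%). L1TD1 and ZFP42, both above the line on day 3, were thus below 1% of hESC in day 7 NKX2-5+, as were POU5F1 and NANOG. Among the early members, DPPA4 had 3.04 FPKM (1.33%) and TERF1 3.85 (3.73%), POU5F1 0.151, NANOG 0.0673, and PRDM14 and UTF1 were listed at 0. In day 7 NKX2-5-, L1TD1 was at 0.797% of hESC, ZFP42 at 11.3%, LIN28A at 12.7% and LIN28B at 33.1%.

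By the size rule, 9 of 10 members were lower in day 7 NKX2-5+ than in hESC, all but UTF1, beside 11.8% of genes with at least 5 FPKM in either library and 13.6% of those with at least 5 in hESC. This library was low in general: the median gene expressed in hESC stood at 47.1% there, and rescaling raised the percentages of the 8 members above 0 by over 1.5 times without ending a call. In day 7 NKX2-5-, 8 of 10 were lower, beside 5.18% and 6.47% of genes, with LIN28B joining UTF1 among those not called. On day 14, 9 of 10 were lower in aMHC+ (6.57% and 8.58% of genes) and 8 of 10 in aMHC- (5.32% and 7.19%), where LIN28B was again not called. The members' median log2 ratios to hESC were -4.19, -3.38, -4.32 and -4.04 in these 4 libraries, and those of the genes tested -0.81, -0.32, 0.02 and 0.30.

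The day 7 fractions held unequal traces of the members. ZFP42 was at 1.73 FPKM in NKX2-5- and 0.0508 in NKX2-5+, L1TD1 at 1.21 and 0.169, LIN28B at 7.29 and 1.59, and DPPA4 at 12.4 and 3.04. TERF1 (10.9 and 3.85) and LIN28A (12.1 and 5.57) lay on the same side. POU5F1 was instead listed at 0 in NKX2-5- and at 0.151 FPKM in NKX2-5+, and NANOG at 0.0342 and 0.0673. With POU5F1B summed in, the pair was at 0.292% of hESC in NKX2-5- and 0.249% in NKX2-5+. As deposited, 6 of 10 members were thus higher in NKX2-5- by 2.18-fold to 34.0-fold, while POU5F1 and NANOG were at or near 0 in both. The direction depended on the scaling for TERF1 and LIN28A. With each library scaled to an equal sum of FPKM, TERF1 (log2 ratio 0.42 in place of -1.29) and LIN28A (0.80, where the deposited values gave a negative one) were higher in NKX2-5+, DPPA4 was at -0.09 and LIN28B at -0.24, and ZFP42 was still at -1.81. MIR612 alone makes up 51.6% of the NKX2-5- sum, and after median-ratio scaling or without small RNA and histone genes all 6 were again higher in NKX2-5-. Only 4 of 10 members reached 5 FPKM in either library and could be called, and of these 0 were, beside 5.42% of genes lower in NKX2-5+ (5.82% of those with at least 5 FPKM in NKX2-5-). With 0.1 FPKM added in place of 1, LIN28B was called. The median log2 ratio was -0.96 for the members and -0.47 for the genes tested, so the median gene was lower in NKX2-5+ as well.

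Other markers also differed between the day 7 fractions. Fibroblast and matrix markers (COL1A1, COL3A1, DCN, LUM and PDGFRB) summed to 686 FPKM in NKX2-5- (5 of 5 at 1 FPKM or more) and 43.4 in NKX2-5+ (3 of 5), with none at 0 in either. Endothelial markers summed to 16.5 (3 of 3) and 6.95 FPKM (2 of 3), again with none at 0. Neuroectoderm markers summed to 10.8 FPKM in NKX2-5-, of which LHX2 was 10.3, and to 1.48 in NKX2-5+, where SOX1 and ZIC1 were at 0. The pluripotent markers read beside the members (SOX2, SALL4, TDGF1 and DNMT3B) summed to 6.28 FPKM in NKX2-5- (2 of 4 at 1 FPKM or more, none at 0) and 7.27 in NKX2-5+ (3 of 4, SOX2 at 0), and to 327 in hESC. Their part in the members' day 7 levels was not tested.

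On day 14 the 2 fractions were close. DPPA4 was at 0.622 FPKM in aMHC+ and 0.400 in aMHC-, L1TD1 at 0.105 and 0.147, ZFP42 at 0.0445 and 0.123, and POU5F1 at 0.181 and 0. NANOG was listed at 0 in aMHC+ and at 0.0258 in aMHC-, and PRDM14 and UTF1 at 0 in both. Thus 7 of 10 members were below 1 FPKM in both libraries. The exceptions were TERF1 (5.27 and 5.63 FPKM), LIN28B (3.82 and 5.57) and LIN28A (3.02 and 4.57). Only 2 of 10 members reached 5 FPKM in either library and could be called, and of these 0 were, beside 0.350% of genes lower in aMHC+ (0.366% of those with at least 5 FPKM in aMHC-).

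The lead of LIN28A over its paralog LIN28B was gone on day 14. LIN28A exceeded LIN28B 4.33-fold in hESC, 6.75-fold in day 3 CD13-/ROR2-, 1.94-fold in day 3 CD13+/ROR2+, 3.50-fold in day 7 NKX2-5+ and 1.66-fold in day 7 NKX2-5-. On day 14 LIN28B was the higher, 1.26-fold in aMHC+ and 1.22-fold in aMHC-, margins that 1 library each cannot separate from equality. As a share of hESC, LIN28B stood at 17.4% and 25.3% in the day 14 libraries and LIN28A at 3.18% and 4.79%. LIN28B had the highest share of its hESC level of all 10 members in each of the 4 later libraries. It was lower in day 7 NKX2-5+ (1.59 FPKM) than in either day 14 library.

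**Figure D4:**
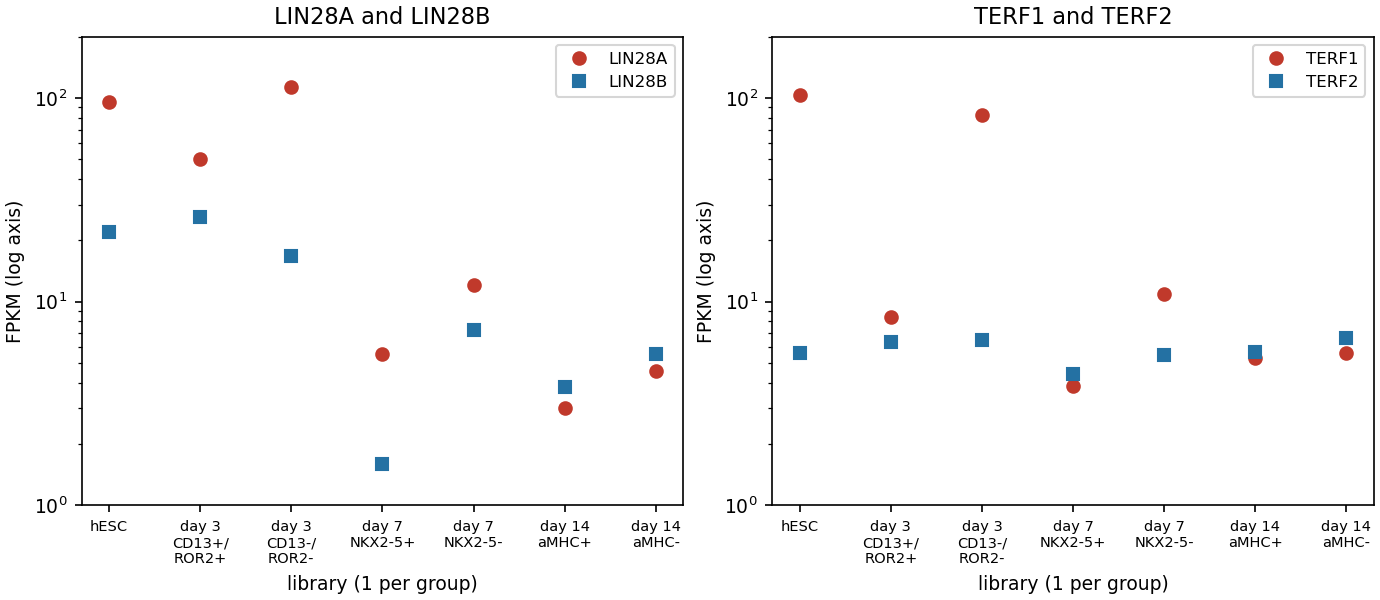
FPKM on a log axis (y) of LIN28A and LIN28B (left) and of TERF1 and TERF2 (right) in the 7 libraries (x, 1 library each). LIN28A lies above LIN28B until day 7 and just below it on day 14, and TERF1 lies far above TERF2 in hESC and day 3 CD13-/ROR2- but near it in day 3 CD13+/ROR2+ and on days 7 and 14.

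Of 12 genes tied to LIN28 and let-7, 10 reached 5 FPKM in each comparison with hESC. Of the 12, 0 were called in either day 3 library against hESC, 2 were lower in day 7 NKX2-5+ (HMGA1 and TRIM71), and 1 was lower in each of day 7 NKX2-5-, day 14 aMHC+ and day 14 aMHC- (TRIM71). Over all genes the rule called 2.54% and 1.17% lower in the day 3 libraries, 11.8% and 5.18% on day 7 and 6.57% and 5.32% on day 14, so these counts are near the background. TRIM71, a ubiquitin ligase and let-7 target, had 79.0 FPKM in hESC, 116 in day 3 double-negative and 34.7 in double-positive cells, 6.26 and 6.86 on day 7 and 2.30 in day 14 aMHC+ cells. HMGA2, a chromatin protein that is a classic let-7 target, had 18.5 FPKM in hESC, 18.7 in aMHC+ and 29.7 in aMHC- cells. IGF2BP1, an RNA-binding let-7 target, was at 23.8 FPKM in hESC and 16.5 and 22.4 on day 14. In day 14 aMHC+ over hESC the list median was -0.60 on the log2 scale. It stood beside 0.02 for the genes tested and -0.33 for those with at least 5 FPKM in hESC. In day 14 aMHC- the list median was -0.27 (beside 0.30 and -0.09). It was -0.84 in day 7 NKX2-5+ (-0.81 and -0.95) and -0.23 in day 7 NKX2-5- (-0.32 and -0.55).

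TERF1 and its shelterin partner TERF2 differed widely in hESC and little on day 14. TERF1 exceeded TERF2 18.4-fold in hESC and 12.9-fold in day 3 CD13-/ROR2-. In day 3 CD13+/ROR2+ the quotient was 1.33, in day 7 NKX2-5- 1.99, and in day 7 NKX2-5+, day 14 aMHC+ and day 14 aMHC- 0.873, 0.926 and 0.845. TERF2 itself lay between 4.41 and 6.66 FPKM in all 7 libraries. Of the 7 other telomere genes, 3 reached 5 FPKM and could be called on day 3, and of these 0 were in either library against hESC (background 2.54% and 1.17%). DKC1, which encodes the telomerase subunit dyskerin, was lower on day 7, beside 11.8% and 5.18% of all genes. It had 5.15 FPKM in NKX2-5+ and 9.69 in NKX2-5-, against 44.5 in hESC. TERF2IP (RAP1) was higher on day 14 (31.0 and 35.0 against 6.43), and the share of all genes called higher was not computed. TERT, the catalytic telomerase subunit, had 0.909 FPKM in hESC, 1.06 in day 3 double-negative and 0.187 in double-positive cells, and was listed at 0 in the 4 later libraries.

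Other pluripotency genes were read from a list of 15 primed or shared ones. Of these, 1 was lower in day 3 CD13+/ROR2+ than in hESC (DPPA2, 0.485 against 5.94 FPKM), beside 2.54% of all genes. A further 2 were higher, among them OTX2 (37.3 against 3.24), and the share of all genes called higher was not computed. The NODAL co-receptor gene TDGF1 had 145 FPKM in hESC, 171 in double-positive and 157 in double-negative cells, and the zinc finger gene SALL4 had 31.9, 37.9 and 49.3. In day 7 NKX2-5+ 11 of the 15 were lower and 0 higher (11.8% of all genes lower) and in day 7 NKX2-5- 8 were lower (5.18%). In each day 14 library 9 were lower, beside 6.57% of genes in aMHC+ and 5.32% in aMHC-. TDGF1 was then at 1.25 FPKM in day 7 NKX2-5+ and SALL4 at 3.80. In the day 3 CD13-/ROR2- library 1 of 15 was lower, LEFTY1, a NODAL inhibitor, at 1.34 FPKM against 39.1, beside 1.17% of genes. DPPA2, which pairs with DPPA4 in chromatin, was at 51.4% of hESC in CD13-/ROR2- where DPPA4 was at 119%, and at 8.16% in CD13+/ROR2+ where DPPA4 was at 17.4%.

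Of 11 naive and early embryo genes, 0 reached 5 FPKM in hESC and 3 did so in some other library. TFAP2C had 6.55 FPKM in day 3 double-negative cells, and the genes called over the 6 comparisons with hESC were TBX3, higher in day 3 CD13+/ROR2+ (7.19 FPKM, listed at 0 in hESC), and KLF2, higher in day 7 NKX2-5- and both day 14 libraries (5.79, 6.66 and 5.52 FPKM, listed at 0 in hESC). The share of all genes called higher was not computed, so these calls have no background beside them. Among the 5 PRDM14 partners and Polycomb genes, JARID2, a cofactor of Polycomb repressive complexes, was lower in all 4 later libraries (3.26 to 4.40 FPKM against 40.0 in hESC). It had 9.80 FPKM in day 3 double-positive and 41.5 in double-negative cells. Over all genes the rule called 11.8% and 5.18% lower on day 7 and 6.57% and 5.32% on day 14. EZH2, at 8.01 FPKM in hESC and 3.94 to 11.8 elsewhere, was not called, and CBFA2T2, EED and SUZ12 were below 5 FPKM in every library and could not be. Among 8 close relatives of the members in the table, POU5F1B and DPPA2 were lower than in hESC in all 4 later libraries, beside the same shares of all genes. YY1, the gene from which ZFP42 arose by retroposition, was at 13.0 FPKM in hESC and 6.18 to 12.0 elsewhere and was not called. NANOGP8 was not analysed here.

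Genes with the most similar profile were ranked for each member of at least 5 FPKM by Pearson's r of log2(FPKM + 1) over the 7 libraries, among 1905 genes. These values describe profiles only, since 7 points that share the hESC-to-cardiac contrast give high r for many genes. For POU5F1 the 3 nearest included ZSCAN10 (r = 0.996) and IMPA2 (0.991), and for NANOG they were HTR7 (0.991), CDYL (0.990) and PLA2G16 (0.990). ZSCAN10, a zinc finger gene of stem cells, had 18.0 FPKM in hESC, 7.49 in day 3 double-negative and 2.63 in double-positive cells. For PRDM14 they were ESRG (0.999), JARID2 (0.997) and HTR7 (0.996). ESRG, a long noncoding RNA of human stem cells, had 103, 213 and 4.43 FPKM in these libraries.

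For L1TD1 the nearest were FAM124A (0.995), the replication origin gene ORC6 (0.994) and ZNF121 (0.992). For ZFP42 they were the DNA primase gene PRIM1 (0.997), the replication kinase gene CDC7 (0.992) and the checkpoint kinase gene CHEK1 (0.992). For LIN28A they were NLN (0.993), GINS1 (0.992) and the spindle gene TPX2 (0.992), and for LIN28B UBA2 (0.997), the replicative helicase gene MCM7 (0.978) and NUP50 (0.976). DPPA4 was nearest to GPRC5B (0.994), the centromere chaperone gene HJURP (0.990) and the cytokinesis kinesin gene KIF23 (0.988), and TERF1 to GULP1 (0.994), the Polycomb gene PHC1 (0.993) and PCDH11X (0.989). PRIM1, for example, had 18.8 FPKM in hESC, 10.6 in day 3 double-positive and 14.0 in double-negative cells, and 1.34 to 3.62 later. PHC1 was at 54.7 FPKM in hESC, 36.3 in day 3 CD13-/ROR2- and 2.55 to 6.95 elsewhere.

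For the mean profile of the 10 members, each scaled to its own range, the 10 nearest included ZNF589 (r = 0.998), PSIP1 (0.994), PYCARD (0.993), WDHD1 (0.992), ESRP1 (0.992), JARID2 (0.991), AP1M2 (0.989), RAB25 (0.989) and NLN (0.987). ESRP1, an epithelial splicing regulator, had 31.8 FPKM in hESC, 41.9 in day 3 double-negative and 7.02 in double-positive cells. RAB25, an epithelial trafficking gene, had 34.0, 53.3 and 10.1 FPKM respectively. The scaled mean itself was 0.98 in hESC, 0.91 in day 3 CD13-/ROR2-, 0.52 in CD13+/ROR2+, 0.21 in day 7 NKX2-5- and 0.04 to 0.06 in the other 3, where 1 is each gene's highest and 0 its lowest log2 value. After median-ratio scaling 7 of these 10 genes were named again, and by rank correlation 1 of 10. Of the 3 genes named for each single member, 0 to 2 were named again after median-ratio scaling and 0 or 1 by rank correlation, so single names depend on these choices.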

How the data were processed

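RNA of 7 sorted or undifferentiated samples was measured, 1 library each. Cells went through the sorter 2 times and RNA was column-purified, per the labels' protocols; TruSeq RNA v2 libraries, which do not mark strand, were sequenced as single reads of 50 bases. The authors deposited 1 table of FPKM; per the submitters' processing notes, Cufflinks and hg19 were used, while for the aligner, annotation and multiply mapped reads the sources used here give nothing. Of 23368 rows, 106 are blank throughout and were left out. FPKM divides by transcript length and library total, so levels can be set between genes, but small RNA genes inflate some totals (MIR612 is 51.6% of the day 7 NKX2-5- sum).

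Groups came from the sample labels. In 9 comparisons, log2 ratios of FPKM + 1 were computed with Python 3.11.15 and pandas 2.3.3. A ratio of size 2 was called if the larger value reached 5 FPKM. Folds and percentages are plain quotients of FPKM, and folds are given only where both values are above 0. The calling code was checked on values with known answers. Similar genes were sought among those of at least 10 FPKM in 1 library and a log2 range of at least 2, small RNA, histone and unnamed symbols left out, taking 3 per member and 10 for the mean; a few genes are not reported here. All members are named, and list genes of at least 5 FPKM in any library may be; TERT, CBFA2T2, EED, SUZ12 and some markers fall outside that rule and were named after their values were seen. Members, lists and rules were chosen with earlier results of these data known. Alternatives were other pseudocounts, minimums, scalings and loss limits.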

Additional observations from a re-analysis of the deposited data

How the results depend on the processing

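No called difference changed direction. Of the log2 ratios not called, 8 changed sign with an equal sum of FPKM: NANOG (0.11), UTF1 (0.09), TERF1 (0.20) and LIN28B (0.12) in day 3 CD13-/ROR2- over hESC, TERF1 (0.42) and LIN28A (0.80) in day 7 NKX2-5+ over NKX2-5-, and L1TD1 (0.02) and TERF1 (0.42) in day 14 aMHC+ over aMHC-. TERF1 in the day 14 pair also did so when small RNA and histone genes were dropped (0.13) and with median-ratio scaling (0.09). With 0.1 FPKM added in place of 1, the members lower in day 7 NKX2-5+ than in day 7 NKX2-5- numbered 1 (LIN28B) in place of 0; the other counts of members called, the counts by first library of loss and the median percentages stayed within 1.5 times. Among single genes, adding 5 FPKM ended 9 calls (all 6 of PRDM14, 2 of ZFP42 and 1 of LIN28B). UTF1 was called in 6 comparisons with no minimum or a minimum of 1 FPKM. Rescaled library sums, with or without small RNA and histone genes, also added calls of UTF1 and LIN28B. The equal sum was set above every deposited library sum, while the added 1 FPKM and the 5 FPKM minimum were kept. UTF1 thus passed the minimum there through the larger unit, and its added calls are not an effect of scaling alone. Median-ratio scaling changed no call. Percentages of hESC in day 7 NKX2-5+ rose by over 1.5 times under every rescaling for the 8 members above 0. With an equal sum of FPKM those of 8 members in day 7 NKX2-5- fell instead, for example LIN28B from 33.1% to 20.0% and LIN28A from 12.7% to 7.70%. With POU5F1B summed in, an alternative chosen after seeing the data, 4 of 6 percentages of POU5F1 moved, all in the later libraries and none above 0.292%. No paired analysis was possible because each group has 1 library, and for the same reason no replicate could be left out. Values well below 1 FPKM rest on few reads, and differences of a few fold between 2 libraries cannot be set against any replicate spread.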
